A study of Mus musculus with 6 samples.

Results

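Cygb, the mouse gene for the globin that was injected as a protein in this study, was described together with 8 further genes that mark quiescent hepatic stellate cells: Lrat, Reln, Hgf, Ecm1, Hand2, Ngfr, Des and Colec11. The 9 genes were taken by symbol from the deposited liver gene table, which lists 24532 genes. All 9 were found, and all 9 passed the filter on low counts. Hepatic stellate cells lie between hepatocytes and the sinusoidal endothelium and hold most of the vitamin A of the body as retinyl esters in lipid droplets. In injury they lose these droplets and become contractile, collagen-making myofibroblasts, and the retinoid, growth factor and globin genes described here are known as markers of the resting state. Cytoglobin binds oxygen, handles nitric oxide and peroxides, and is found in liver in stellate cells.

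The study asked what recombinant human cytoglobin does to gene expression in injured liver. The 3 rhCYGB mice were wild-type C57BL/6 animals fed DDC (3,5-diethoxycarbonyl-1,4-dihydrocollidine) for 4 weeks, at 0.1% of the diet, and injected in the last 2 of these weeks with rhCYGB. Its dose was 2 mg/kg, given 2 times each week. The 3 vehicle mice were wild-type C57BL/6 animals on the same diet that received normal saline in its place. Tissue was collected 2 days after the final injection, and the age of the mice is not stated. DDC blocks heme synthesis and injures bile ducts, and every mouse received it, so both groups are injured livers. The injected agent is a human protein and adds no mouse transcript, so Cygb mRNA does not check the labels. The labels name each animal, so the replicates are separate mice. Replicate numbers were assigned here in sample order and pair nothing between the groups.

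Whole-liver RNA was measured, so fewer stellate cells and less RNA per stellate cell cannot be told apart. Hepatocyte RNA dominated every library, with 15 hepatocyte markers summing to between 129581 and 150673 TPM (transcripts, scaled for length and to a constant total per library) with rhCYGB and between 129401 and 147345 TPM with vehicle. On the first principal component of log2 expression, with 67.6% of the variance, rhCYGB replicate 1 lay at -52.7, within the vehicle range of -81.3 to -24.5, while rhCYGB replicates 2 and 3 lay at 61.6 and 130. Long transcripts were also relatively scarce in the same pair of libraries. Per doubling of transcript length, expression deviated from the mean of the 6 libraries by 0.237, -0.353 and -0.330 log2 units in rhCYGB replicates 1 to 3 and by 0.405, -0.0162 and 0.0568 in vehicle replicates 1 to 3. Results that turn on 1 library are therefore given with and without it. Counts scaled to library size (CPM) are scaled further by trimmed mean of M values (TMM), with factors of 1.18, 0.74 and 0.63 in rhCYGB replicates 1 to 3 and 1.447, 1.07 and 1.18 in vehicle replicates 1 to 3.

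With all 6 libraries, 6 of the 9 genes had a lower fitted level with rhCYGB (Cygb, Lrat, Reln, Hgf, Ngfr and Colec11) and 3 a higher one (Ecm1, Hand2 and Des). None passed an adjusted p of 0.05 by edgeR, where 0% of the 14415 genes tested passed. At an unadjusted p under 0.05 there was 1 of 9, Cygb, against 8.12% of all genes in either direction and 2.06% in the lower direction. The median log2 fold change of the 9 genes was -0.43, beside -0.06 over all genes tested, and a fold change under 0 was found for 53.2% of all genes. Counts were present in all 6 libraries for 8 of the 9 genes, and Ngfr was at 0 in rhCYGB replicate 3. In whole-liver RNA such counts do not show which cells made them.

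Per unit length in vehicle livers the order of levels was Ecm1, Colec11, Cygb, Lrat, Reln, Des, Hand2, Hgf and Ngfr. Ecm1 stood at 71.8 ± 2.21 TPM with rhCYGB and 78.5 ± 18.8 TPM with vehicle, Colec11 at 24.9 ± 21.3 TPM with rhCYGB and 45.7 ± 8.67 TPM with vehicle, and Cygb at 9.13 ± 7.91 TPM with rhCYGB and 26.5 ± 9.88 TPM with vehicle. These and later values are means ± SD with n = 3 in each group. The remaining 6 genes averaged between 1.37 and 7.85 TPM with rhCYGB and between 2.63 and 9.75 TPM with vehicle. Among vehicle livers the neighbours from Lrat to Hgf in that order differed by less than their spread.

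**Figure D1:**
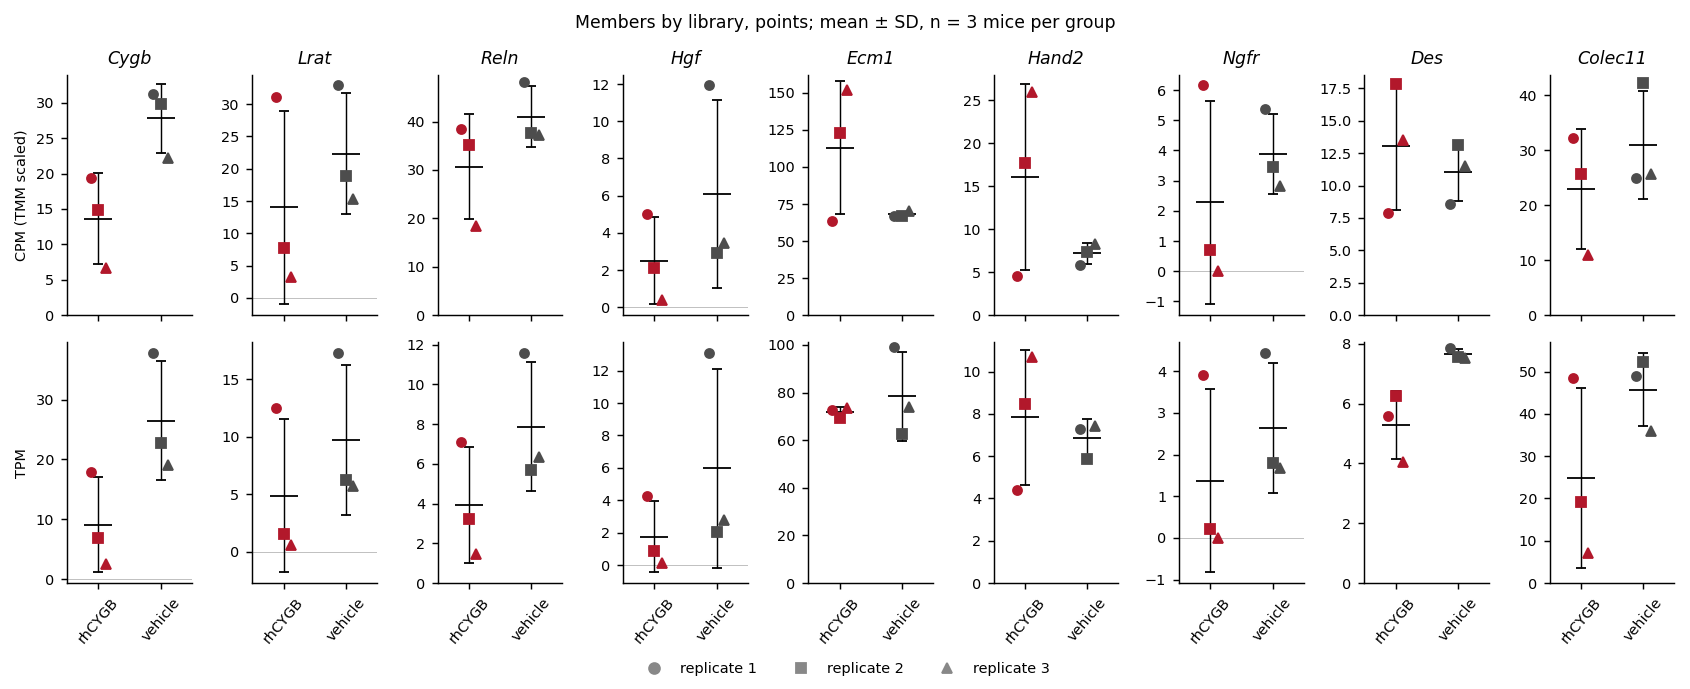
CPM scaled by TMM (top row) and TPM (bottom row) of each of the 9 genes by group, with 1 point per mouse and the mean ± SD of 3 mice in black; point shapes mark replicates and axes differ between panels. Cygb is the 1 gene whose rhCYGB points all lie below the vehicle points on both scales, and Ecm1, Hand2 and Des have 2 rhCYGB points above all vehicle points in CPM.

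Cygb, on chromosome 11 at 116645595 to 116654313 of mm10 (minus strand, 1 annotated transcript of 2331 bases), was lower in every rhCYGB liver than in any vehicle liver. It was at 19.4, 14.8 and 6.64 CPM in rhCYGB replicates 1 to 3, against 31.3, 29.9 and 22.2 CPM in vehicle replicates 1 to 3. The groups did not overlap in CPM, as for 7.38% of all genes in the lower direction and 6.02% in the higher. As a share of the vehicle mean, rhCYGB replicates 1 to 3 had 69.7%, 53.4% and 23.9%. The log2 fold change was -1.03 (SE 0.41), or 0.490 of the vehicle level, with an edgeR adjusted p of 0.523 and an unadjusted p of 0.0380. The unadjusted edgeR p of Cygb was 0.0686 without rhCYGB replicate 2, 0.0959 without vehicle replicate 1 and 0.0868 without vehicle replicate 2. In TPM the groups did not overlap either, at 17.9, 6.83 and 2.62 TPM with rhCYGB and 37.7, 22.7 and 19.0 TPM with vehicle, as for 12.7% of all genes in the lower direction. On the annotation of GENCODE M21 the opposite-strand gene Prcd covers 201 of the 2331 exon bases of Cygb, and whether strand was used in the counting is not stated.

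Other globins and the cytochrome b5 system, which reduces cytoglobin in the test tube, were listed together. Of 12 such genes tested, 4 were lower and 8 higher, with a median of 0.24 and none at an unadjusted edgeR p under 0.05. The cytochrome b5 genes were divided. By edgeR log2 fold change Cyb5a (0.81) and Cyb5r3 (0.33) were higher, and Cyb5b (-0.17), Cyb5r1 (-0.86) and Cyb5r4 (-0.53) lower. By limma on log2(TPM + 1) the median was -0.31, with 4 of 12 higher, beside -0.51 for all genes. Myoglobin (Mb) was listed at 0 in every library. Cyb5a, the membrane cytochrome b5, was at 1392 ± 517 CPM with rhCYGB and 795 ± 178 CPM with vehicle. Hba-a2, an alpha globin gene of red cells, was at 0.0912, 502 and 277 CPM in rhCYGB replicates 1 to 3 and at 109, 424 and 194 CPM in vehicle replicates 1 to 3. The red-cell globin genes have near-identical copies among which reads are divided, so their values are uncertain. In rhCYGB replicate 1 Hba-a1 had 10400 counts and Hba-a2 had 7. Of these globins, Hba-a1, Hba-a2, Hbb-bt, Hbb-b1 and Hbb-b2 were among the 8 higher genes and Hbb-bs among the 4 lower.

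Lrat, which esterifies retinol for storage, lies on chromosome 3 at 82892582 to 82903974 (minus strand). It was at 31.1, 7.74 and 3.19 CPM in rhCYGB replicates 1 to 3, against 32.9, 18.9 and 15.3 CPM in vehicle replicates 1 to 3. Both rhCYGB replicates 2 and 3 lay below every vehicle liver, and rhCYGB replicate 1 lay among them. With all mice, the log2 fold change was -0.67 (SE 0.77, edgeR adjusted p = 0.669), smaller than its error. It reached -2.03 (SE 0.49, edgeR adjusted p = 0.0299) without rhCYGB replicate 1, and was -0.21 (SE 0.62) without rhCYGB replicate 3.

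The other retinoid genes had more higher than lower values on the CPM scale. Of 32 tested members of a list for retinoid storage, transport and oxidation, which includes lipid droplet proteins, 22 were higher and 10 lower, with a median of 0.33. At an unadjusted edgeR p under 0.05 there were 5 of 32, all higher, against 6.06% of all genes in the higher direction, and none passed after adjustment. Upper-quartile factors gave 20 of 32 higher. On log2(TPM + 1), limma gave 10 of 32 higher and a median of -0.31, beside -0.51 for all genes. The 4 with the smallest p are named here. Retsat, the retinol saturase, was at 183 ± 113 CPM with rhCYGB and 50.3 ± 10.2 CPM with vehicle, a log2 fold change of 1.87 (SE 0.48). Plin5, which coats lipid droplets, was at 182 ± 127 CPM with rhCYGB and 38.6 ± 7.50 CPM with vehicle (log2 fold change 2.24, SE 0.58). Its relative Plin4 was at 15.9 ± 9.31 CPM with rhCYGB and 3.83 ± 1.13 CPM with vehicle (2.06, SE 0.56). Pnpla2, the lipase that opens stored triglyceride, was at 307 ± 268 CPM with rhCYGB and 68.4 ± 22.3 CPM with vehicle (2.17, SE 0.71). These 4 genes are also known from hepatocytes or fat cells. Hepatocyte markers were higher in 15 of 15 members by edgeR, with a median of 0.62, and in 5 of 15 by limma on log2(TPM + 1), with a median of -0.16, and their part in these values was not tested.

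Lrat and Hand2 had the largest lower and the largest higher fold change among the 4 of the 9 genes that passed an adjusted p of 0.05 without rhCYGB replicate 1, so the 250 bases before their annotated starts are shown (RefSeq, GRCm38.p6, each read 5′ to 3′ on the strand of the gene). Capitals mark each match to CANNTG, the E-box letters that basic helix-loop-helix factors such as Hand2 recognise, which read the same on both strands. The Lrat window (chr3:82903975-82904224, minus strand) holds 1 match and the Hand2 window (chr8:57320733-57320982, plus strand) holds 2, and 66.2% of 32851 windows of this length in the same table hold at least 1. Sequences were matched for 8 of the 9 genes, all but Cygb, with 2 starts for Hgf, and 8 of these 9 windows hold a match.
Lrat: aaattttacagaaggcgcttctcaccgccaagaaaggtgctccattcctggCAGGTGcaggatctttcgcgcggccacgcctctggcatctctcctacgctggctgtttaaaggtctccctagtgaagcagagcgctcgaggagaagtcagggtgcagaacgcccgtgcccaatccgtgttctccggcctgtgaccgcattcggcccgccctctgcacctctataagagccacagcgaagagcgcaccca
Hand2: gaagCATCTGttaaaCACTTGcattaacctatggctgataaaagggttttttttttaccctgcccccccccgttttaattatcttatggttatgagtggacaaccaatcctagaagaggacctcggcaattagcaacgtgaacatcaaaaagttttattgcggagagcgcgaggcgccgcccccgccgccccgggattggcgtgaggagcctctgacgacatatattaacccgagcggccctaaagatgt

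Reln encodes reelin, a large secreted glycoprotein that guides neuron migration in brain and is made by stellate cells in liver. Its gene lies on chromosome 5 at 21884454 to 22344705 (minus strand). It was at 38.6, 35.2 and 18.4 CPM in rhCYGB replicates 1 to 3, against 48.2, 37.6 and 37.2 CPM in vehicle replicates 1 to 3. The first of these rhCYGB values falls inside the vehicle range and the other two fall below it. The log2 fold change was -0.42 (SE 0.33, edgeR adjusted p = 0.581), and -0.16 (SE 0.25) without rhCYGB replicate 3. Reln has the longest transcripts of the 9 genes, at 11696 bases, and with each library's length trend removed its log2 fold change was 0.03 (SE 0.31) in place of -0.42. Of 2 annotated transcripts, transcript variant 2 took between 96.8% and 100% of the estimated level in every library.

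In the reelin pathway, which runs through the receptors Vldlr and Lrp8 to the adaptor Dab1, 11 of 14 tested genes were lower and 3 higher, with a median of -0.58. Once the length trend was removed 8 were lower and 6 higher, with a median of -0.28. With an unadjusted edgeR p under 0.05 there was 1 of 14, against 2.06% of all genes in the lower direction. This was Dab2, an endocytic adaptor related to Dab1. It was at 14.0 ± 6.99 CPM with rhCYGB and 29.5 ± 3.35 CPM with vehicle (log2 fold change -1.07, SE 0.39, adjusted p = 0.523 by edgeR). Furin, a protease and the gene of highest TPM in the list, was at 156 ± 42.5 CPM with rhCYGB and 147 ± 5.81 CPM with vehicle. Without rhCYGB replicate 1 the count of lower genes was 13 of 14, and without rhCYGB replicate 3 it was 12 of 14 with a median of -0.37.

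Hgf encodes hepatocyte growth factor, the ligand of the receptor Met and a mitogen of hepatocytes, and lies on chromosome 5 at 16553495 to 16619439 (plus strand). It was at 5.03, 2.097 and 0.398 CPM in rhCYGB replicates 1 to 3, against 11.9, 2.91 and 3.46 CPM in vehicle replicates 1 to 3. Vehicle replicate 1 stood far above the other vehicle livers, rhCYGB replicate 1 lay between them, and rhCYGB replicates 2 and 3 lay below all vehicle livers. With all mice, the log2 fold change was -1.27 (SE 0.90, edgeR adjusted p = 0.559), and -0.34 (SE 0.91) without vehicle replicate 1. It was -2.27 (SE 0.92) without rhCYGB replicate 1 and -0.78 (SE 0.74) without rhCYGB replicate 3.

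Of 5 annotated Hgf transcripts, 3 had reads assigned. Transcript variant 5, which starts downstream of the others at 16553901 and runs to the far end of the gene, took 74.5% of the Hgf level in rhCYGB replicate 1, against a range of 62.5% to 80.6% among vehicle livers. It was estimated at 298, 0 and 0 counts in rhCYGB replicates 1 to 3, against 839, 143 and 162 counts in vehicle replicates 1 to 3. Transcript variant 4, which ends early at 16573944, had 71, 56 and 6 counts with rhCYGB and 147, 61 and 75 counts with vehicle. The full-length transcript variant 1 had 17, 57 and 9 counts with rhCYGB and 22, 1 and 6 counts with vehicle. No Hgf transcript passed by edgeR, where 0% of 19664 transcripts passed and 4.04% had an unadjusted p under 0.05, 1.19% lower and 2.85% higher. The split among variants is an estimate made by StringTie and rests on few counts in rhCYGB replicate 3.

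**Figure D2:**
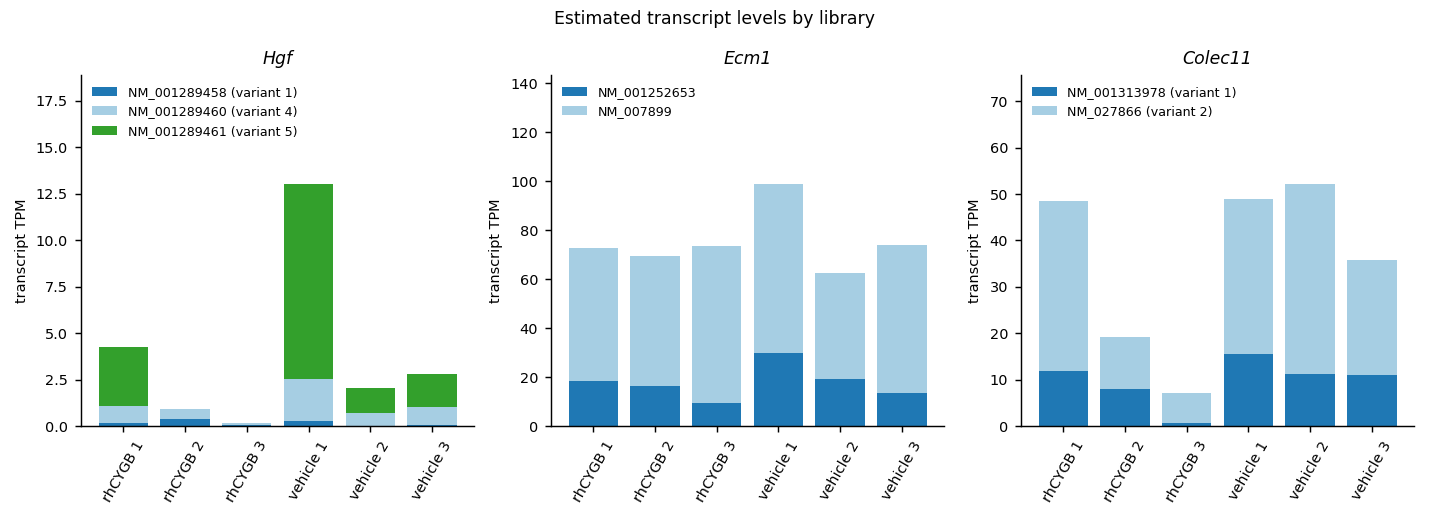
Estimated level of each annotated transcript of Hgf, Ecm1 and Colec11 in TPM, stacked by library; transcripts at 0 in every library are left out. Hgf variant 5 is absent from the bars of rhCYGB replicates 2 and 3, where it was estimated at 0 counts, and the 2 Ecm1 transcripts keep a like order in all 6 libraries.

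Around Hgf, 9 of 16 tested genes of its activation and signalling were lower and 7 higher, with a median of -0.20, which was 0.02 with the length trend removed. At an unadjusted edgeR p under 0.05 there was 1 of 16, against 2.06% of all genes in the lower direction. This was Plau, the urokinase gene whose product can cleave pro-HGF, at 3.08 ± 2.16 CPM with rhCYGB and 9.68 ± 3.99 CPM with vehicle (log2 fold change -1.64, SE 0.58, edgeR adjusted p = 0.523). Hpn, the hepatocyte protease hepsin, was at 584 ± 242 CPM with rhCYGB and 314 ± 67.5 CPM with vehicle.

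Ecm1 encodes a secreted glycoprotein that in mouse liver holds TGF-beta in its latent form, and lies on chromosome 3 at 95734148 to 95739569 (minus strand). It was at 63.8, 123 and 152 CPM in rhCYGB replicates 1 to 3, against 66.9, 66.8 and 70.2 CPM in vehicle replicates 1 to 3. The vehicle livers lay close together, with a coefficient of variation of 2.81%, while rhCYGB replicates 2 and 3 lay above all of them and rhCYGB replicate 1 just below. The log2 fold change was 0.73 (SE 0.34, edgeR adjusted p = 0.523), and 1.01 (SE 0.22, edgeR adjusted p = 0.0240) without rhCYGB replicate 1. Without rhCYGB replicate 3 it was 0.46 (SE 0.34). In TPM, Ecm1 was at 72.6, 69.3 and 73.5 with rhCYGB and 99.1, 62.4 and 74.0 with vehicle, and by limma on log2(TPM + 1) its log2 fold change was -0.10 (SE 0.24).

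Both Ecm1 transcripts were measured. The longer, of 1899 bases, took 74.6%, 76.5% and 87.2% of the Ecm1 level in rhCYGB replicates 1 to 3 and 69.7%, 69.3% and 82.0% in vehicle replicates 1 to 3. The other transcript has 1896 bases, and neither passed by edgeR (adjusted p = 0.802 and 0.883).

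The genes that store, release or activate latent TGF-beta, with other partners of Ecm1, had lower values in 17 of 22 tested members, with a median of -0.44. Once the length trend was removed 13 of 22 were lower, with a median of -0.14, and without rhCYGB replicate 3 the median was -0.24. With an unadjusted edgeR p under 0.05 there were 3 of 22, all lower, against 2.06% of all genes in that direction, and none passed after adjustment. Tgfb1, the main profibrotic ligand, was at 13.3 ± 3.94 CPM with rhCYGB and 23.8 ± 4.44 CPM with vehicle (log2 fold change -0.83, SE 0.31). Tgfb2, a second isoform, was at 1.94 ± 0.898 CPM with rhCYGB and 4.94 ± 1.95 CPM with vehicle (-1.34, SE 0.46), and Mmp9, a gelatinase, at 2.55 ± 1.40 CPM with rhCYGB and 5.76 ± 0.570 CPM with vehicle (-1.17, SE 0.49). The groups did not overlap in CPM for 6 of the 22 genes, these 3 among them, all in the lower direction, where 7.38% of all genes did so. Macrophages express these genes as well, and macrophage markers summed to between 1725 and 3063 TPM with rhCYGB and between 3710 and 5273 TPM with vehicle, whose part in these values was not tested. By edgeR 8 of 14 macrophage markers were lower, with a median of -0.16.

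Ngfr encodes the low-affinity neurotrophin receptor p75, which is also found on nerve and on portal fibroblasts, and lies on chromosome 11 at 95568821 to 95587698 (minus strand). It had 472, 37 and 0 estimated counts in rhCYGB replicates 1 to 3, against 454, 244 and 199 in vehicle replicates 1 to 3. These correspond to 6.15, 0.687 and 0 CPM with rhCYGB and 5.37, 3.46 and 2.84 CPM with vehicle. A count of 0 allows up to 0.0797 CPM in rhCYGB replicate 3, counting error only. The highest library and the lowest library were both rhCYGB libraries. With all mice, the log2 fold change was -0.76 (SE 1.33, edgeR adjusted p = 0.773), and -3.43 (SE 1.15, edgeR adjusted p = 0.0718) without rhCYGB replicate 1. It was -0.34 (SE 1.52) without rhCYGB replicate 2, -0.20 (SE 0.83) without rhCYGB replicate 3 and -0.45 (SE 1.60) without vehicle replicate 1.

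Of 13 tested neurotrophins, their receptors and adaptors, 10 were lower and 3 higher, with a median of -0.39. By edgeR 1 was lower and 1 higher at an unadjusted p under 0.05, against 2.06% of all genes lower and 6.06% higher. Ntrk2, the receptor of brain-derived neurotrophic factor, was at 8.03, 6.59 and 3.05 CPM in rhCYGB replicates 1 to 3, against 26.3, 24.2 and 11.4 CPM in vehicle replicates 1 to 3 (log2 fold change -1.81, SE 0.47, edgeR adjusted p = 0.523). All 3 rhCYGB livers were below all 3 vehicle livers in CPM, as for 7.38% of all genes. Ntf3, the ligand neurotrophin 3, was at 1.07, 5.12 and 7.38 CPM with rhCYGB and 1.28, 1.43 and 1.11 CPM with vehicle. Nerve and glia markers together summed to between 1.83 and 4.70 TPM with rhCYGB and between 4.78 and 10.7 TPM with vehicle, with Th and Sox2 at 0 throughout. By edgeR 3 of 7 tested nerve and glia markers were lower, with a median of 0.12.

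Hand2 encodes a basic helix-loop-helix transcription factor that marks stellate cells, and lies on chromosome 8 at 57320983 to 57324517 (plus strand). It was at 4.55, 17.7 and 26.0 CPM in rhCYGB replicates 1 to 3, against 5.82, 7.39 and 8.31 CPM in vehicle replicates 1 to 3. Both rhCYGB replicates 2 and 3 lay above every vehicle liver and rhCYGB replicate 1 below every one. The log2 fold change was 1.16 (SE 0.58, edgeR adjusted p = 0.523), and 1.60 (SE 0.28, edgeR adjusted p = 0.0212) without rhCYGB replicate 1. It was 0.63 (SE 0.57) without rhCYGB replicate 3, and 0.10 (SE 0.42) by limma on log2(TPM + 1). In TPM the same order held, at 4.39, 8.48 and 10.7 with rhCYGB and 7.30, 5.85 and 7.43 with vehicle. The opposite-strand RNA Hand2os1 covers 19.6% of the exon bases of Hand2 in GENCODE M21, so reads of either could have been counted as Hand2 if strand was not used.

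Other transcription factors of stellate cells had mostly lower values. Of 21 tested, 20 were lower and 1 higher, with a median of -0.49, and none had an unadjusted edgeR p under 0.05. Irf1, an interferon-response factor, was at 33.3 ± 12.5 CPM with rhCYGB and 41.5 ± 1.89 CPM with vehicle, and Ets2 at 30.5 ± 12.6 CPM with rhCYGB and 45.0 ± 11.7 CPM with vehicle. Foxf2, Tbx18 and Nkx3-2 were listed at 0 in every library. The count of lower factors was 21 of 22 without rhCYGB replicate 1 and 20 of 22 without rhCYGB replicate 3, where the median was -0.23.

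Des encodes desmin, the intermediate filament of muscle that also marks rodent stellate cells, and lies on chromosome 1 at 75360292 to 75368579 (plus strand). It was at 7.91, 17.8 and 13.5 CPM in rhCYGB replicates 1 to 3, against 8.58, 13.1 and 11.5 CPM in vehicle replicates 1 to 3. The groups overlapped, with a log2 fold change of 0.24 (SE 0.36, edgeR adjusted p = 0.733). In TPM all 3 rhCYGB livers, at 5.57, 6.24 and 4.04, lay below the vehicle livers at 7.85, 7.57 and 7.52, and by limma on log2(TPM + 1) the log2 fold change was -0.48 (SE 0.36). In TPM 12.7% of all genes do not overlap in the lower direction. By edgeR the log2 fold change of Des was 0.50 (SE 0.27) without rhCYGB replicate 1 and -0.045 (SE 0.38) without rhCYGB replicate 2.

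Among filament genes and partners of desmin, 8 of 14 tested were lower and 6 higher, with a median of -0.31, and none had an unadjusted edgeR p under 0.05. Vim, the vimentin of all mesenchymal cells, was at 141 ± 66.3 CPM with rhCYGB and 162 ± 65.7 CPM with vehicle. Lmna, the nuclear lamin A, was at 179 ± 70.8 CPM with rhCYGB and 135 ± 44.7 CPM with vehicle.

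Colec11 encodes a collectin, a soluble sugar-binding protein of the lectin pathway of complement, and lies on chromosome 12 at 28594172 to 28623330 (minus strand). It was at 32.1, 25.7 and 10.97 CPM in rhCYGB replicates 1 to 3, against 24.9, 42.2 and 25.7 CPM in vehicle replicates 1 to 3. Only rhCYGB replicate 3 stood clear of the vehicle range in the plotted CPM values. With all mice, the log2 fold change was -0.43 (SE 0.43, edgeR adjusted p = 0.633). It was -0.76 (SE 0.41) without rhCYGB replicate 1, -0.10 (SE 0.33) without rhCYGB replicate 3 and -0.14 (SE 0.48) without vehicle replicate 2. Transcript variant 2 was the main form and took 75.7%, 58.4% and 91.4% of the Colec11 level in rhCYGB replicates 1 to 3 and between 68.2% and 78.7% in the vehicle livers. Transcript variant 1 had 605, 580 and 36 estimated counts with rhCYGB and 674, 638 and 555 with vehicle.

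Lectin pathway genes, most of them hepatocyte products, were higher in 9 of 13 tested members and lower in 4, with a median of 0.58, and none passed by edgeR after adjustment. By limma on log2(TPM + 1) 4 of 13 were higher, with a median of -0.19, beside -0.51 for all genes. At an unadjusted edgeR p under 0.05 there were 2 of 13, both higher, against 6.06% of all genes in that direction. Fcna, a ficolin of macrophages, was at 123 ± 42.5 CPM with rhCYGB and 65.6 ± 17.2 CPM with vehicle. Sftpa1, a surfactant collectin, was at 1.09, 2.32 and 15.6 CPM in rhCYGB replicates 1 to 3 and at 0.379, 0.851 and 0.798 CPM in vehicle replicates 1 to 3, so that rhCYGB replicate 3 set most of its mean.

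**Figure D3:**
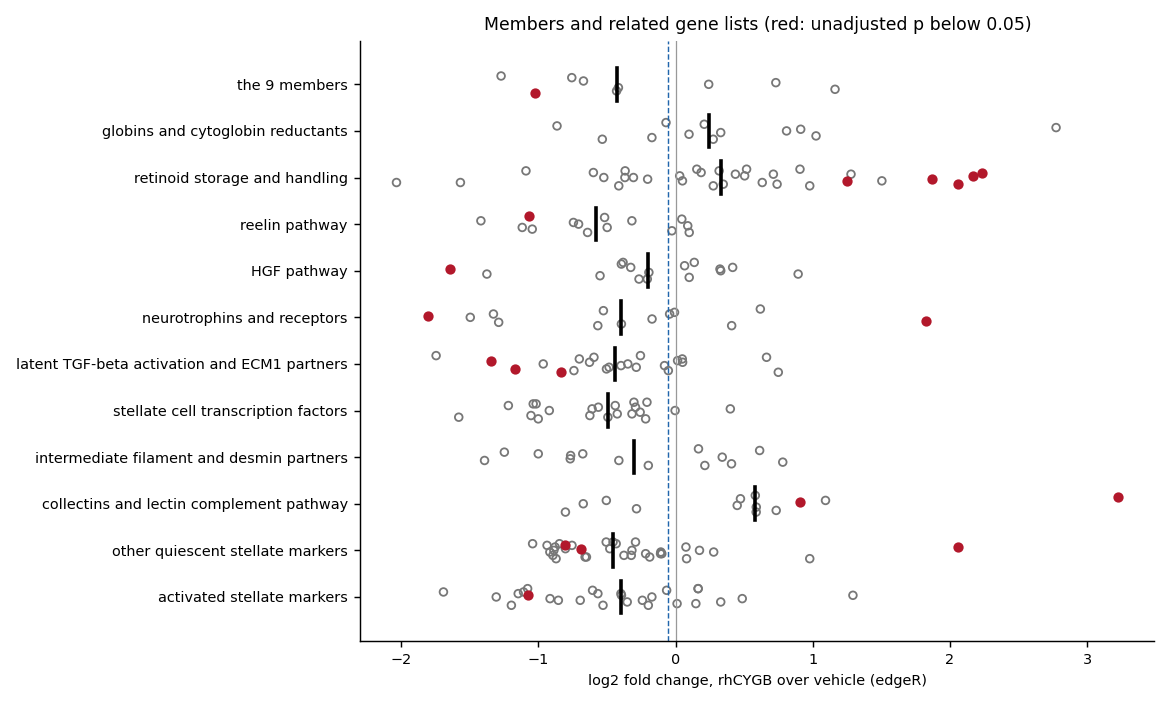
Log2 fold change (rhCYGB over vehicle, edgeR) of the 9 genes and of the tested genes of 11 related lists, 1 point per gene, with red points at an unadjusted p below 0.05, black bars at list medians and a dashed line at the median of all genes, -0.06. The 9 genes have a median of -0.43, and the retinoid and lectin pathway lists have medians of 0.33 and 0.58. By limma on log2(TPM + 1) these 2 lists have medians of -0.31 and -0.19, beside -0.51 for all genes.

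The 3 rhCYGB libraries differed among themselves. In rhCYGB replicate 3, 6 of the 9 genes had their lowest CPM of all 6 libraries (Cygb, Lrat, Reln, Hgf, Ngfr and Colec11) and 2 their highest (Ecm1 and Hand2). The shares of all genes at their lowest or highest in that library were not computed, so whether these counts are particular to the 9 genes was not tested. That library also had the most counts on the ribosomal precursor gene Rn45s, at 1.74% of the total, against 0.321% and 0.443% in rhCYGB replicates 1 and 2 and between 0.225% and 0.326% with vehicle. It had the fewest genes with a count, at 14933, against 15542 to 16290 in the other libraries, and the part of these differences in its values was not tested. In rhCYGB replicate 1, Lrat was at 139%, Ngfr at 158% and Colec11 at 104% of the vehicle mean CPM, while Hand2 was at 63.4% and Des at 71.5%. In rhCYGB replicate 2, Lrat was at 34.6%, Hgf at 34.4% and Ngfr at 17.6% of that mean, and Reln at 85.9%. The coefficient of variation in CPM was higher among rhCYGB than among vehicle livers for each of the 9 genes, for example 107% among rhCYGB and 41.7% among vehicle livers for Lrat. The share of all genes with this order of variation was not computed. On the first principal component the rhCYGB libraries ran from -52.7 to 130 and the vehicle libraries from -81.3 to -24.5.

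Ratios between genes of 1 library do not depend on how libraries are scaled to each other. The TPM of Cygb was 3.22, 1.09 and 0.647 times that of Des in rhCYGB replicates 1 to 3, against 4.80, 3.00 and 2.53 times in vehicle replicates 1 to 3. Lrat was at 2.25, 0.248 and 0.135 times Des with rhCYGB and 2.20, 0.827 and 0.758 times with vehicle. Hand2 was at 0.788, 1.36 and 2.64 times Des with rhCYGB and 0.930, 0.773 and 0.987 times with vehicle. For all 8 genes other than Des these ratios overlapped between the groups. In rhCYGB replicates 2 and 3 the ratios of Cygb, Lrat, Reln, Hgf, Ngfr and Colec11 lay below every vehicle ratio and that of Hand2 above every one. The ratios still carry each library's length trend where lengths differ, as for Lrat at 5349 bases and Des at 3065 bases.

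The genes most like Cygb were found by the root mean square difference between centred log2 CPM profiles over the 6 libraries, among 11359 named genes at 1 TPM or more. The 8 closest, at 0.081 to 0.15 log2 units, were Serpine2, Adra2b, Frzb, Ccl2, Cnpy4, Arap3, Fgr and Ak1. They were chosen for this likeness, so fold changes near that of Cygb follow from the choice. Serpine2, a protease inhibitor, was closest, with a log2 fold change of -0.96 (SE 0.45). Frzb, a secreted Wnt antagonist, was at 6.05, 5.20 and 2.63 CPM with rhCYGB and 12.3, 11.2 and 7.53 CPM with vehicle. Ccl2 is a monocyte chemokine, Adra2b an adrenergic receptor and Fgr a kinase of myeloid cells. Of the other stellate genes, Reln ranked 611 and Colec11 723 by this measure, while Lrat ranked 3113, Hgf 6148, Des 7607, Ecm1 9353, Hand2 10744 and Ngfr 11215. The profile measure counts the size of changes as well as their direction, so a low place need not mean an opposite direction. It includes what the 6 libraries share in depth, scaling and length bias.

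**Figure D4:**
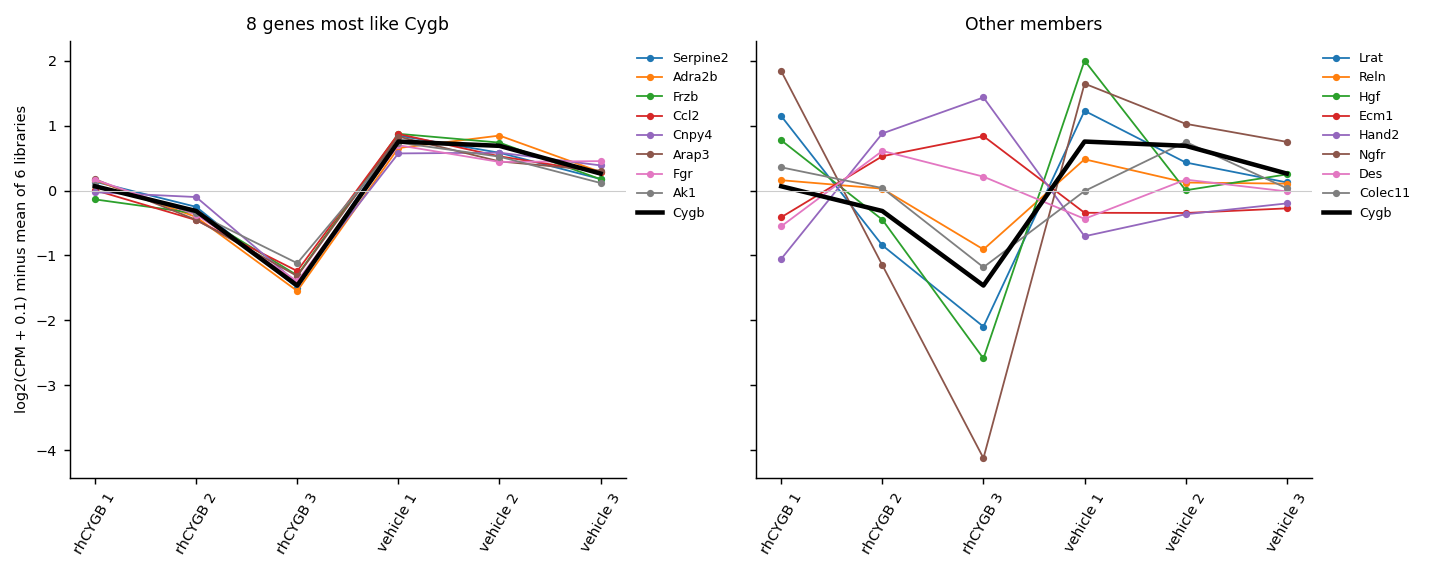
Profile of Cygb (black) over the 6 libraries as log2(CPM + 0.1) minus the mean of the libraries, with the 8 most similar genes on the left and the other 8 stellate genes on the right; lines only join the points of 1 gene. The left profiles stay close to Cygb, for which they were chosen. On the right Ecm1 and Hand2 are highest in rhCYGB replicate 3, where Cygb is lowest.

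Without rhCYGB replicate 1, 4 of the 9 genes passed an adjusted p of 0.05 by edgeR. In the same fit 23.2% of 14647 genes passed, 10.5% lower and 12.7% higher with rhCYGB. The 4 were Cygb, at a log2 fold change of -1.37 (SE 0.38, edgeR adjusted p = 0.0393), and Lrat, both lower, and Ecm1 and Hand2, both higher. Without rhCYGB replicate 2 or without rhCYGB replicate 3, none of the 9 passed by edgeR. In these fits 0 of 14696 and 0 of 14782 genes passed, and Cygb had log2 fold changes of -1.10 (SE 0.50) and -0.70 (SE 0.29). By limma-voom with sample quality weights, which gave rhCYGB replicate 1 a weight of 0.173, 5 of the 9 passed (3 lower, 2 higher) where 30% of all genes passed. DESeq2 gave an adjusted p to 1 of the 9, Ecm1 (adjusted p = 0.170), as its own filtering left the other 8 without one. It called 4.17% of the 1558 genes with an adjusted p, 0.128% lower and 4.04% higher.

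**Figure D5:**
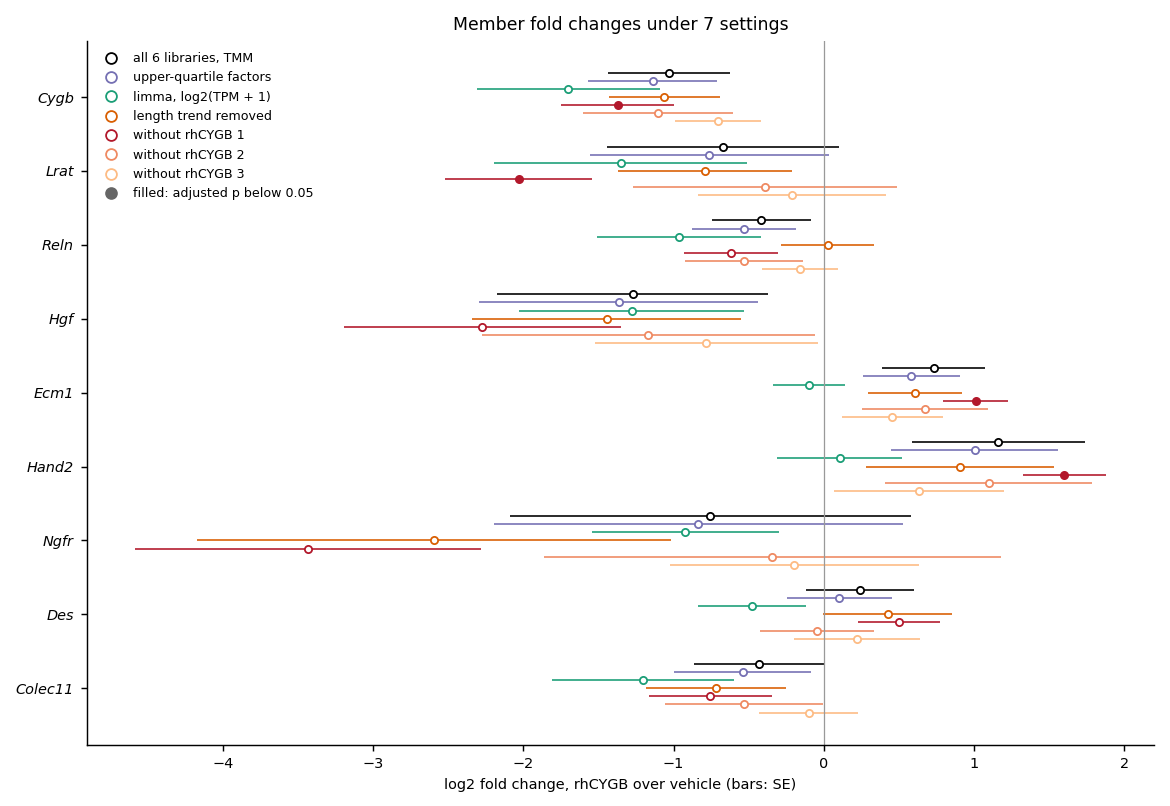
Log2 fold change (rhCYGB over vehicle) of each of the 9 genes with its SE under 7 settings; filled points have an adjusted p below 0.05. Filled points appear for Cygb, Lrat, Ecm1 and Hand2, all without rhCYGB replicate 1, and the Ecm1 and Des points on log2(TPM + 1) lie left of 0.

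All genes together had a median of -0.06 with TMM and -0.18 after upper-quartile scaling, and limma on log2(TPM + 1) gave -0.51, so the fold changes were also set against that median. Under all 16 settings Cygb, Lrat, Reln, Hgf, Ngfr and Colec11 lay below the median of all genes and Ecm1 and Hand2 above it. Relative to that median Cygb ranged from -1.25 to -0.69, Lrat from -1.91 to -0.20, Ecm1 from 0.41 to 1.14 and Hand2 from 0.62 to 1.73. Reln ranged from -0.49 to -0.04, Hgf from -2.15 to -0.35, Ngfr from -3.31 to -0.18 and Colec11 from -0.79 to -0.08. The settings reuse the same mice, and the share of all genes that keep to the same side was not computed. Des lay above the median in 15 of 16 settings, between -0.01 and 0.62.

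Other markers of stellate cells, none of them among the 9 genes, were lower in 27 of 33 tested members, with a median of -0.46. With an unadjusted edgeR p under 0.05 there were 2 lower and 1 higher of 33, against 2.06% of all genes lower and 6.06% higher. Pdgfrb, the PDGF receptor of stellate cells and pericytes, was at 16.3 ± 5.57 CPM with rhCYGB and 28.5 ± 2.14 CPM with vehicle (log2 fold change -0.81, SE 0.31, edgeR adjusted p = 0.523). Sparcl1, a matrix protein of perivascular cells, was at 12.8 ± 2.81 CPM with rhCYGB and 20.6 ± 4.68 CPM with vehicle, and the higher gene was Plin4, given above. The list summed to 1036, 428 and 267 TPM in rhCYGB replicates 1 to 3 and 1475, 871 and 855 TPM in vehicle replicates 1 to 3. Without rhCYGB replicate 1 the list had 30 of 33 lower, 9 of them past the adjusted p of 0.05 by edgeR with 2 higher genes past it, where 10.5% of all genes passed lower and 12.7% higher. Without rhCYGB replicate 3 it had 24 of 33 lower, with a median of -0.22.

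Markers of activated stellate cells also had mostly lower values. They were lower in 20 of 27 tested members, with a median of -0.40, and summed to between 317 and 758 TPM with rhCYGB and between 924 and 1335 TPM with vehicle. At an unadjusted edgeR p under 0.05 there was 1 of 27, against 2.06% of all genes in the lower direction. It was Timp1, an inhibitor of matrix proteases, at 9.28 ± 2.79 CPM with rhCYGB and 19.5 ± 4.97 CPM with vehicle (log2 fold change -1.07, SE 0.32, edgeR adjusted p = 0.523). For 13 of these 27 genes the groups did not overlap in CPM, all lower, beside 7.38% of all genes tested. Without rhCYGB replicate 1 the count of lower genes was 17 of 27 and without rhCYGB replicate 2 it was 25 of 27. Without rhCYGB replicate 3 it was 18 of 27, with a median of -0.16.

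Markers of other cells, some of which express members of the 9, were also summed. Over all genes, limma on log2(TPM + 1) gave a median of -0.51. In TPM the groups did not overlap for 12.7% of all genes in the lower direction and 1.33% in the higher. By edgeR the list medians were 0.04 for portal fibroblast, -0.40 for smooth muscle and -0.07 for mesothelial markers. They were -0.29 for sinusoidal endothelial, -0.22 for lymphatic and -0.16 for bile duct markers. Portal fibroblast markers summed to between 44.2 and 127 TPM with rhCYGB and between 132 and 191 TPM with vehicle, with 7 of 15 tested lower by edgeR. Smooth muscle markers summed to between 14.6 and 60.1 TPM with rhCYGB and between 56.1 and 123 TPM with vehicle, with 7 of 9 lower and Pln at 0 throughout. Mesothelial markers summed to between 10.8 and 11.3 TPM with rhCYGB and between 10.3 and 16.1 TPM with vehicle. Sinusoidal endothelial markers summed to 238, 119 and 54.4 TPM in rhCYGB replicates 1 to 3 and to between 181 and 322 TPM with vehicle, with 9 of 15 lower. Lymphatic markers summed to between 6.22 and 21.1 TPM with rhCYGB and between 16.9 and 40.9 TPM with vehicle, with 7 of 7 lower. Bile duct markers summed to between 1683 and 4132 TPM with rhCYGB and between 5038 and 6277 TPM with vehicle, with 9 of 14 lower. Their part in the values of the 9 genes was not tested.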

How the data were processed

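Liver mRNA of 6 mice was sequenced from stranded libraries, per the labels' protocols. Per the submitters' processing notes, the tools named are StringTie 1.3.4d, HISAT2 2.1.0 and FastQC 0.11.7, and the build is mm10, and the strand setting is not given in the sources used here. The authors deposited estimated counts, as whole numbers, and FPKM for genes and for transcripts, per the file headers. The counts equal FPKM times length times a constant within 2% and so are estimates. Totals ran from 58422095 to 72431373 counts per library.

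From these, FPKM were rescaled to TPM, and counts were tested with edgeR 4.0.16 (TMM, its default expression filter, robust quasi-likelihood F test, Benjamini-Hochberg adjustment over all genes) in R 4.3.3. The method was tested on simulated data. Alternatives used DESeq2 1.42.0, limma 3.58.1 (also on log2(TPM + 1) and log2(TPM + 0.1)), other factors and filters, removal of each library's length trend, and leaving out each library. Fold changes minus the median of all genes, and list counts without each library, were added after seeing the data. The mice carry individual numbers and share none between groups.

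The 9 genes and all gene lists were chosen with earlier results of these data known. Named from each list were genes with an unadjusted p under 0.05, at most 4 by smallest p, filled up to 2 by highest TPM. For lists of other cell types only sums and counts are given.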

Additional observations from a re-analysis of the deposited data

How the results depend on the processing

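Of 135 fold changes of the 9 genes under alternatives, 112 kept their direction and side of the threshold, 8 kept their direction but had no adjusted p (DESeq2), 9 passed the threshold in addition and 6 reversed. The 9 came from leaving out rhCYGB replicate 1 and from quality weights. The reversed log2 fold changes were 0.025 for Reln with the length trend removed, -0.10 for Ecm1 on both log2(TPM + 1) and log2(TPM + 0.1), and for Des -0.48 and -0.55 on these scales and -0.045 without rhCYGB replicate 2, where leaving out 1 library gave -0.045 to 0.50. The cause was not tested. Genes past the adjusted p numbered 0 by edgeR, 65 by DESeq2 and 4323 by limma-voom with quality weights, and between 0 and 3391 on leaving out 1 library, with 3391 without rhCYGB replicate 1. An adjusted p of 0.1 also gave 0. Transcripts numbered 0, and between 0 and 958 on leaving out 1 library, with 958 without rhCYGB replicate 1. Of the 9 genes, 1 had an unadjusted p under 0.05 by edgeR, 2 by DESeq2, 5 with quality weights and between 0 and 6 on leaving out 1 library. Over all genes, 1170 of 14415 did so by edgeR, 1934 by DESeq2 and 6632 of 14415 with quality weights. Without rhCYGB replicate 1, where the count was 6 of 9, it was 6152 of 14647 over all genes. No paired analysis was possible because the labels give animal numbers only and the groups share none of them. There were 3 mice a group, and estimated counts were as low as 0 for Ngfr and 15 for Hgf in rhCYGB replicate 3. Small differences in these genes were therefore not detectable. Cygb, at 0.490 of the vehicle level, did not pass after adjustment either (edgeR adjusted p = 0.523).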
